A study of Mus musculus with 8 samples.

Results

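The transcription factors that pattern the mesenchyme of the developing palate were measured in palatal shelves of mouse embryos at embryonic day 14.5. The set comprised 9 genes, Osr1, Osr2, Shox2, Meox2, Tbx22, Barx1, Mn1, Lhx6 and Lhx8, and was taken as every probe set annotated with exactly one of these symbols. That rule gave 13 of the 45037 probe sets on the array besides controls, or 9 of the 18193 genes with a probe set of their own. It left out no probe set of these genes for carrying a second symbol. The study compared 4 samples labelled R26Pax3/Pax3 (replicates 1, 3, 4 and 7, called mutant below) with 4 wild type littermates (replicates 2, 6, 8 and 11), all of a C57BL/6 by SV129 cross, on Affymetrix arrays with 1 array per sample. R26Pax3 names an allele with Pax3 inserted at the Rosa26 locus, and Pax3 encodes a Pax family regulator known from neural crest and myogenic progenitors. The labels name no driver line, do not say which shelf cells express the allele, and do not say whether a sample held tissue of 1 embryo or of several, so that the p-values cover the spread between these samples only.

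The palatal shelves grow from the maxillary processes, turn upward beside the tongue and fuse in the midline, and most of their mass is mesenchyme derived from the neural crest. The mesenchyme is not uniform. Shox2 marks its anterior part, whereas Meox2, Tbx22, Barx1 and Mn1 are known mainly from its middle and posterior parts. Osr1 and Osr2 are graded between the lateral and medial sides, and the LIM homeobox genes Lhx6 and Lhx8 act together in the mesenchyme of the jaws, palate and teeth. Mouse mutants of most of these genes have cleft palate, and human TBX22 is a gene of X-linked cleft palate.

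Promoter sequences in the RefSeq table of build GRCm38.p6 were found for 6 of the 9 genes, in 10 windows of 300 bases that run from 250 bases before a transcription start to 50 after it. The bases before the start are shown for Tbx22 and Lhx8. These genes formed the pair with the strongest correlation across arrays, a negative one, as described below. The Tbx22 stretch lies at chrX:107667714-107667963 on the plus strand and the Lhx8 stretch at chr3:154330561-154330810 on the minus strand. For Lhx6, 30 bases at chr2:36105579-36105608 on the minus strand are shown around the 1 match to GTCACGC, the core of sites bound by the paired domain of Pax proteins, which is in capitals. All are written 5′ to 3′.
Tbx22: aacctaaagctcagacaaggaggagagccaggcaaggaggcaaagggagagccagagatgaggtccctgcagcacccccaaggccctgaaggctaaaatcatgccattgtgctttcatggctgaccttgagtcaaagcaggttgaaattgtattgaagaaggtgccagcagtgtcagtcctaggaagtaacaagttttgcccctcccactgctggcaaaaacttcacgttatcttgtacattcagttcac
Lhx8: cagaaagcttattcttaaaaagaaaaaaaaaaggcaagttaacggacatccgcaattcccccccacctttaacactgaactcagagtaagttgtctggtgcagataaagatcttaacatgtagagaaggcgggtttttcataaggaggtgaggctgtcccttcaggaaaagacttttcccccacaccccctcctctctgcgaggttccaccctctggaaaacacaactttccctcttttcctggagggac
Lhx6: ggaggggattgGTCACGCatgactcatctt

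The match in Lhx6 begins 189 bases before the transcription start of its window. GTCACGC, searched on both strands, was present in 1 of the 10 member windows and in 2.09% of the 32851 windows of the table. The paired-class homeodomain sites, in which TAAT and ATTA are separated by 2 or 3 bases, were in 0 of the 10 and in 0.390% and 0.487% of all windows. The homeodomain palindrome TAATTA (5.29% of all windows) and the T-box site AGGTGTGA (1.28%) were also in 0 of the 10, which says only that these letters are not in these windows. The letters of the TATA box, TATAAA, were in 3 of the 10, those of Shox2 and Meox2 and 1 of Lhx6, and in 13.6% of all windows. The Shox2 match lay 203 bases before the start on the same strand. Those of Meox2, 29 bases before, and Lhx6, 3 bases after, were on the opposite strand. The motifs do not overlap one another in the member windows, and they were chosen with the promoter sequences in view. A match describes the sequence and does not show binding.

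Pax3 itself separated the genotypes on 2 of its 3 probe sets, 532 to 722 in mutant against 142 to 176 in wild type arrays on the brighter of them, as labelled. The tissue carried its defining mesenchymal markers. Prrx1, Twist1, Pdgfra, Col1a2, Col3a1 and Msx1 lay above the median of the array on all 8 arrays, with summed signals of 23663 to 27471 in mutant and 24279 to 29554 in wild type. Other tissues were present too, and muscle, neuronal and cartilage markers varied most between arrays. The sum of 6 skeletal muscle markers ran from 483 to 3435 in mutant and from 1508 to 3848 in wild type arrays, and that of 6 neuronal markers from 838 to 1491 and from 351 to 1737. Sums for epithelium were 3869 to 5519 and 3323 to 4879, for cartilage 570 to 1561 and 871 to 2168, for bone 6230 to 7545 and 7131 to 9282, for endothelium 704 to 834 and 673 to 824, and for macrophages 969 to 1471 and 1010 to 1285. The sums for tooth germ, 129 to 149 in mutant and 173 to 189 in wild type, were the only ones of the 10 lists that did not overlap. That separation came from Ambn, with 50.4 to 85.2 in mutant and 97.1 to 120 in wild type. Fgf4, Fgf3, Amelx and Edar each overlapped between genotypes and were below the array median on all 8 arrays. Log2 fold changes on each gene's brightest probe set were positive for all 6 epithelial, 6 neuronal and 5 endothelial markers. They were negative for all 6 muscle and 4 tested bone markers, and none was called in limma. The other tested lists were mixed. Another probe set of Cdh5 had -0.16 and another of Ttn 0.17, while the remaining ones had the sign of their list. Of all tested probe sets, 50.3% were positive and 49.7% negative. Markers of 1 tissue can vary together, so their signs are not separate observations. Some were close to 0, such as 0.01 for the endothelial markers Kdr and Pecam1. Mutant replicate 7 had the lowest muscle sum, 483, and wild type replicate 6 the highest neuronal sum, 1737. The part of these tissues in the values of the 9 factors was not tested. The 3 measured markers of basal forebrain, another site of Lhx6 and Lhx8, were below the array median on all 8 arrays (Nkx2-1, Gad1 and Gad2). In such bulk tissue, fewer cells of a type and less RNA per cell cannot be told apart.

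All 9 patterning genes gave signals above the array medians (43.5 to 44.9) on all 8 arrays from at least 1 probe set, and no difference between R26Pax3/Pax3 and wild type shelves was called for any of them. Of the 13 probe sets, 12 passed the filter on low signals, which kept the 27021 probe sets above the 40th percentile of mean signal. Of these 12, 0 passed an adjusted p of 0.05 in limma, where 0.0148% of all tested probe sets passed (0.0074% higher and 0.0074% lower). At an unadjusted p under 0.05 there was 1, Osr2, against 4.86% of all tested probe sets (2.43% higher in mutant). The groups overlapped on all 12, whereas they did not overlap on 2.73% of all tested probe sets. In mutant shelves 4 of the 12 had a positive and 8 a negative log2 fold change, against 50.3% and 49.7% of all tested probe sets. The median log2 fold change was -0.06 over the 12 and 0.00 over all tested probe sets, and the median absolute value was 0.11 and 0.09. Fold changes are mutant minus wild type on log2(signal + 16), which understates the change of dim probe sets, and the 95% confidence intervals reached at most 0.67 in either direction. Levels were not ranked between genes, because different probe sets give different signals for the same amount of RNA.

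**Figure D1:**
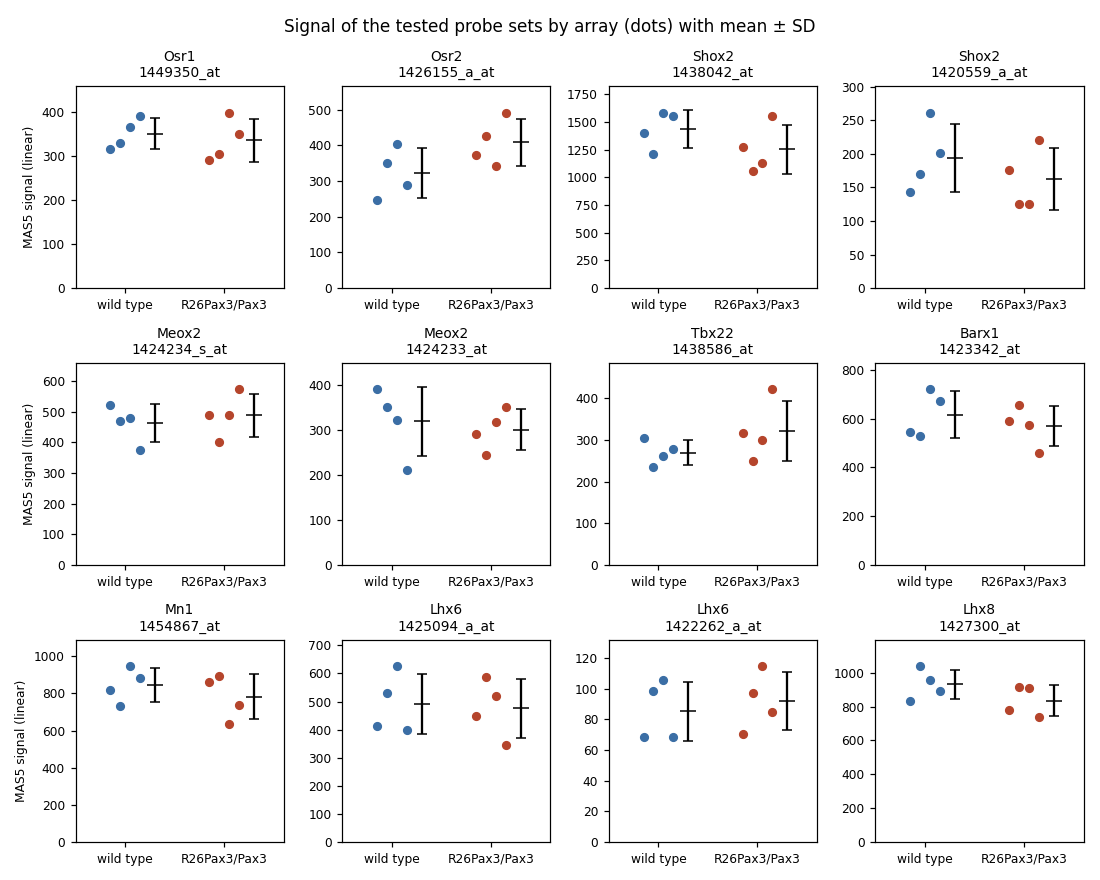
Linear MAS5 signal of the 12 tested probe sets (vertical axis, from 0) in 4 wild type (blue) and 4 R26Pax3/Pax3 arrays (red), 1 dot per array, with mean ± SD beside them. The groups overlap in every panel. For Osr2 and Tbx22, 2 of the mutant arrays lie above the highest wild type array, and for Lhx8, Osr1 and both Shox2 probe sets 2 lie below the lowest, with 1 above the highest for Osr1.

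Osr2, an odd-skipped zinc finger factor required for growth and elevation of the shelves, had the largest difference of the 9 genes. Its signal was 373, 426, 341 and 492 in mutant replicates 1, 3, 4 and 7 and 403, 246, 351 and 290 in wild type replicates 2, 6, 8 and 11. Mutant replicates 3 and 7 lay above every wild type array, and the other mutant arrays lay within the wild type range. The means were 408 ± 65.9 and 322 ± 68.9 (SD, n = 4 each), and mutant over wild type was 1.27. On the log2 scale the difference was 0.34 (SE 0.151, 95% confidence interval 0.01 to 0.67, limma adjusted p = 1.00). The exact permutation p of the same difference was 0.143, where the smallest possible for 4 arrays against 4 is 0.0286. A second Osr2 probe set read 1.3 to 7.5 on the 8 arrays, below every array median, cannot be distinguished from background and was not tested.

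Osr1, the related factor of the lateral shelf, read 289, 304, 398 and 350 in mutant replicates 1, 3, 4 and 7 and 365, 315, 329 and 391 in wild type replicates 2, 6, 8 and 11. Mutant replicates 1 and 3 lay below and mutant replicate 4 above all wild type arrays. Its log2 fold change was -0.07 (SE 0.113, 95% confidence interval -0.31 to 0.18). The values sorted by deposition order rather than by genotype. The first 4 arrays deposited (mutant 1 and 3, wild type 6 and 8) read 289 to 329 and the last 4 (mutant 4 and 7, wild type 2 and 11) read 350 to 398, with no overlap. It was the only 1 of the 12 probe sets with that property, which 5.14% of all tested probe sets shared. What differed between these sets of arrays is not given in the sources used here.

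Shox2, a paired-class homeobox factor that sustains growth of the anterior shelf, had lower means in mutant arrays on both of its probe sets. The brighter read 1278, 1057, 1126 and 1550 in mutant replicates 1, 3, 4 and 7 and 1585, 1401, 1212 and 1553 in wild type replicates 2, 6, 8 and 11. Mutant replicates 3 and 4 lay below all wild type arrays and mutant replicate 7 lay among the highest. The log2 fold change was -0.20 (SE 0.122, 95% confidence interval -0.47 to 0.06, limma adjusted p = 1.00). The dimmer probe set read 126 to 221 in mutant and 144 to 262 in wild type arrays, again with 2 mutant arrays below all wild type arrays, and had a log2 fold change of -0.24 (SE 0.196). The probe sets followed each other across the 8 arrays (Pearson r = 0.86, exact permutation p = 0.00791, adjusted p = 0.0119 over the 3 genes with 2 tested probe sets; Spearman rho = 0.90, exact permutation p = 0.00456).

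Among the genes of the posterior shelf, Tbx22 encodes a T-box repressor and lies on the X chromosome. Its signal was 317, 248, 301 and 421 in mutant replicates 1, 3, 4 and 7 and 261, 305, 234 and 277 in wild type replicates 2, 6, 8 and 11. Mutant replicates 1 and 7 lay above all wild type arrays and mutant replicate 3 near the bottom of them. The means of 322 ± 72.4 and 269 ± 29.4 (SD, n = 4 each) gave a log2 fold change of 0.23 (SE 0.142, 95% confidence interval -0.08 to 0.54, limma adjusted p = 1.00). Without mutant replicate 7 it was 0.09.

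Meox2, a homeobox factor of mesoderm and of the posterior palate, showed no shared direction on its 2 probe sets. The brighter read 490, 401, 490 and 573 in mutant replicates 1, 3, 4 and 7 and 480, 523, 470 and 376 in wild type replicates 2, 6, 8 and 11, with a log2 fold change of 0.08 (SE 0.123). The other ran from 245 to 351 in mutant and from 211 to 391 in wild type arrays, with -0.06 (SE 0.169). Wild type replicate 11 was lowest on both, and the probe sets followed each other (Pearson r = 0.89, exact permutation p = 0.00548, adjusted p = 0.0119; Spearman rho = 0.64, exact permutation p = 0.0962). The differences had opposite signs in the first and last 4 arrays deposited, -0.16 and 0.31 on the brighter and -0.45 and 0.34 on the other.

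Barx1, a BarH-like homeobox factor of the posterior palate and the molar mesenchyme, read 589, 657, 575 and 459 in mutant replicates 1, 3, 4 and 7 and 720, 545, 527 and 673 in wild type replicates 2, 6, 8 and 11. Mutant replicate 7 alone lay below the wild type range. The log2 fold change was -0.11 (SE 0.128, 95% confidence interval -0.39 to 0.17). Mn1, a transcriptional coregulator that acts upstream of Tbx22 in the posterior shelf, read 861, 896, 634 and 738 in mutant and 947, 816, 732 and 882 in wild type arrays in the same order, with a log2 fold change of -0.11 (SE 0.117, 95% confidence interval -0.37 to 0.14). Mutant replicate 4 alone lay below the wild type range. For both genes the sign differed between the first and last 4 arrays deposited, 0.21 and -0.43 for Barx1 and 0.18 and -0.41 for Mn1. Of the 12 probe sets, 7 had the same sign in both sets of arrays, against 43.7% of all tested probe sets.

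Lhx8 and Lhx6, LIM homeobox factors that share functions in the shelf mesenchyme, did not differ beyond the spread between arrays. Lhx8 read 778, 917, 909 and 736 in mutant replicates 1, 3, 4 and 7 and 958, 835, 1039 and 891 in wild type replicates 2, 6, 8 and 11. Mutant replicates 1 and 7 lay below all wild type arrays. The means of 835 ± 91.8 and 931 ± 88.0 (SD, n = 4 each) gave a log2 fold change of -0.16 (SE 0.0977, 95% confidence interval -0.37 to 0.06, limma adjusted p = 1.00).

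The brighter Lhx6 probe set read 450, 588, 520 and 344 in mutant replicates 1, 3, 4 and 7 and 626, 413, 531 and 398 in wild type replicates 2, 6, 8 and 11. The arrays of each genotype spanned nearly the same range, and the log2 fold change was -0.05 (SE 0.172). The dimmer probe set ran from 70.5 to 115 in mutant and from 68.2 to 105 in wild type arrays, with a log2 fold change of 0.10 (SE 0.167). The correlation between the probe sets was 0.71 (Pearson, exact permutation p = 0.0574, adjusted p = 0.0574; Spearman rho = 0.67, exact permutation p = 0.0831).

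**Figure D2:**
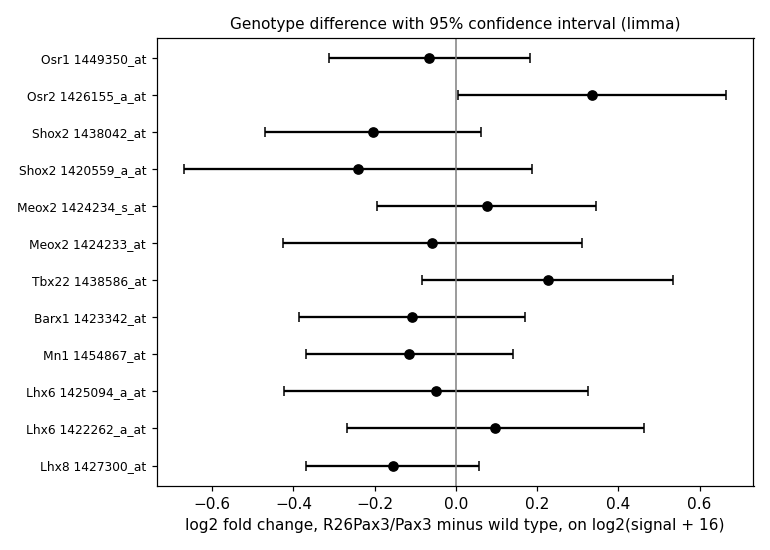
Log2 fold change of each tested probe set, R26Pax3/Pax3 minus wild type on log2(signal + 16), with limma's 95% confidence interval (bars), 4 arrays per genotype. Only the interval of Osr2, 0.01 to 0.67, lies to 1 side of 0, before any adjustment for the number of probe sets.

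The spread within genotypes was not tested against that of other genes, and its measures differed. The within-genotype SD on the log2 scale ran from 0.146 (Lhx8) to 0.351 (the dimmer Shox2 probe set), with a median of 0.226 against 0.186 over all tested probe sets, and 10 of the 12 lay above the latter. The median coefficient of variation of the linear signal in wild type arrays was 14.4% for the 12 and 14.3% for all tested probe sets.

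Part of that variation was correlated between Tbx22 and Lhx8. Correlations were computed for all 36 pairs of the 9 genes over the 8 arrays, with the brightest probe set of each gene. Tbx22 and Lhx8 ran opposite to each other, and this was the 1 pair that passed after adjustment over the 36 (Pearson r = -0.91, exact permutation p = 0.000794, adjusted p = 0.0286; Spearman rho = -0.95, exact permutation p = 0.00114, adjusted p = 0.0411). Without the 2 arrays farthest from the median of Tbx22, wild type 8 and mutant 7, r was -0.79. It was -0.87 within mutant and -0.995 within wild type arrays, and -0.96 and -0.97 within the first and last 4 arrays deposited, with 4 arrays each. With any 1 array left out, r lay between -0.94 and -0.88, and the adjusted p between 0.0286 and 0.214, under 0.05 only without mutant replicate 4.

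**Figure D3:**
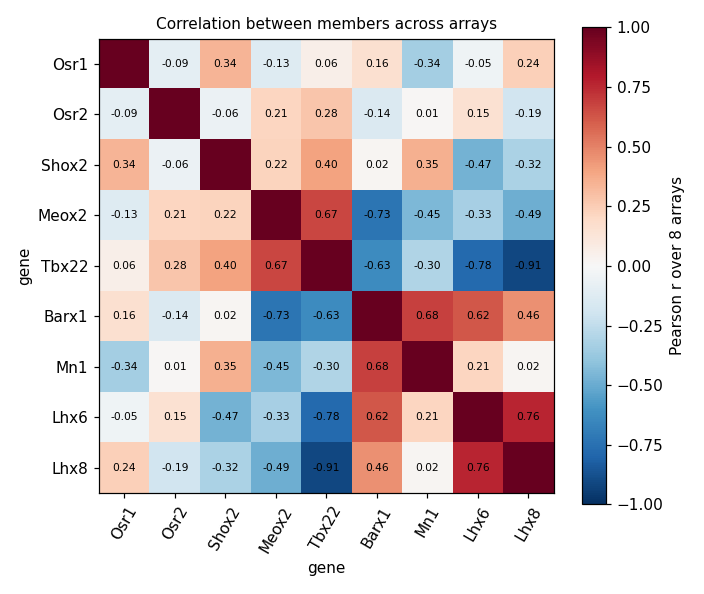
Pearson r between the 9 genes over the 8 arrays (color and number), with 1 probe set per gene. The lowest value is that of Tbx22 with Lhx8, -0.91, and the highest that of Lhx6 with Lhx8, 0.76.

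Lhx6 went with Lhx8 (Pearson r = 0.76, exact permutation p = 0.0301, adjusted p = 0.361; Spearman rho = 0.83, exact permutation p = 0.0154, adjusted p = 0.261), although this pair did not pass the adjustment and r was 0.55 without the 2 arrays farthest from the median of Lhx6. Of all 36 pairs, 4 had an unadjusted Pearson p under 0.05, and the share among pairs of other genes was not computed. No pair of the anterior gene with a posterior gene passed the adjustment. The correlation of Shox2 was 0.22 with Meox2, 0.40 with Tbx22, 0.02 with Barx1 and 0.35 with Mn1 (exact permutation p of 0.586, 0.340, 0.966 and 0.394, adjusted p of 0.924, 0.882, 0.982 and 0.882; Spearman rho of 0.07, 0.26, 0.29 and 0.40, exact permutation p of 0.882, 0.536, 0.501 and 0.327). With genotype means subtracted, the value for Shox2 with Tbx22 was 0.83 (exact permutation p = 0.00990, adjusted p = 0.119), and it was 0.97 within mutant and 0.49 within wild type arrays. The related factors Osr1 and Osr2 had a Pearson r of -0.09 (exact permutation p = 0.823, adjusted p = 0.982; Spearman rho = -0.24, exact permutation p = 0.582). With means by deposition order subtracted it was -0.65 (permutation p = 0.0913, adjusted p = 0.329, likewise not exact). It was -0.37 and -0.91 within the first and last 4 arrays deposited.

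Of the 10 marker lists, that of muscle is set beside Tbx22 and Lhx8 here, with that of basal forebrain for comparison. The 3 arrays with the lowest sum of muscle markers, mutant 7 at 483, wild type 6 at 1508 and mutant 1 at 1606, were also the 3 lowest for Lhx8 and the 3 highest for Tbx22. The other 5 arrays had muscle sums of 2861 to 3848, and among them the highest muscle sum, in wild type 11, went with an Lhx8 signal of 891 and the lowest, in wild type 8, with 1039. Mutant 4, with a muscle sum of 3435, had a Tbx22 signal of 301, against 305 in wild type 6. Wild type 2, wild type 8, mutant 3 and mutant 4 had the highest sums of basal forebrain markers, 31.2 to 36.6. They also had the highest Lhx8 signals, 909 to 1039, although those markers lay below the array median on every array. Neither match was tested against chance among the 10 lists, and the part of muscle content in the correlation was not tested.

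**Figure D4:**
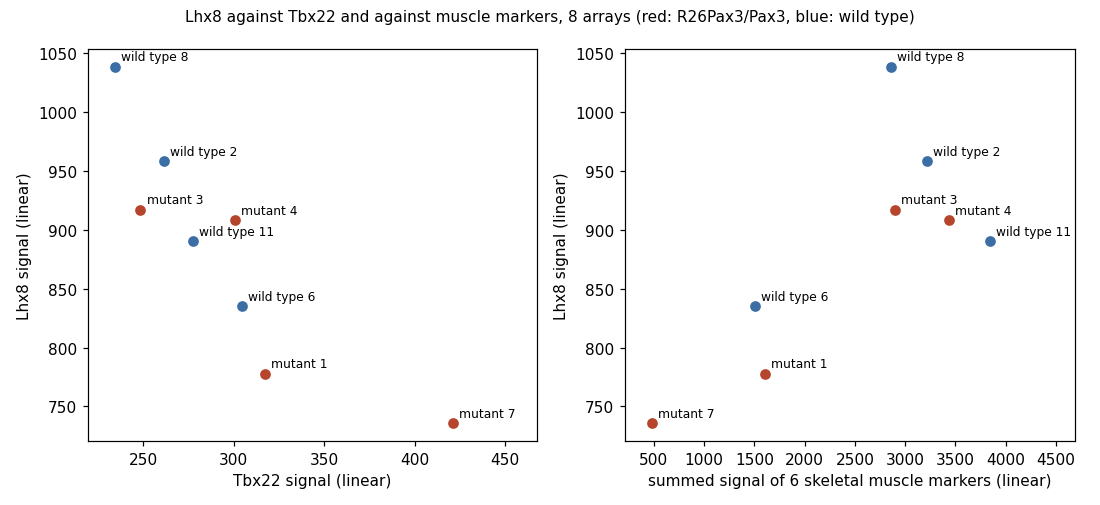
Linear signal of Lhx8 (vertical axes) against that of Tbx22 (left) and against the summed linear signal of 6 skeletal muscle markers (right), 1 dot per array, R26Pax3/Pax3 in red and wild type in blue. Lhx8 falls from 1039 in wild type 8, the lowest array for Tbx22, to 736 in mutant 7, the highest, and the 3 lowest arrays for Lhx8 are the 3 with muscle sums of 483 to 1606.

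The genes whose signals were most alike to each factor over the 8 arrays were searched among 12339 genes. They were Atp6v0e, Zfp948 and Ndufb10 for Osr1, Tpm4, Tysnd1 and Ercc5 for Osr2, Plpp5, Gosr1 and Elob for Shox2, and Gpbp1, Synpo2 and Sez6l for Meox2. Those of Tbx22 were Rgs2, Anxa3 and Clec4a2, those of Barx1 were Maea, Tnfaip3 and Dag1, and those of Mn1 were Efna5, Crebzf and Cant1. Mxra8, Arhgap33 and Tmem86a stood nearest to Lhx6, and Pdzd2, Hip1 and 4933433G19Rik to Lhx8. The highest r of a factor lay between 0.94 (Lhx8 with Pdzd2) and 0.98 (Shox2 with Plpp5). The median of the highest r over all 12339 genes was 0.97, so with 8 arrays a partner this close is usual for any gene.

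Genes that act around these factors in the shelf were taken from 5 lists, with 1 probe set per gene. Of 64 listed genes 49 were tested, 30 with a positive and 19 with a negative log2 fold change. None was called in limma over all tested probe sets (0.0148% were), and 7 had an unadjusted p under 0.05 (4.86% of all tested probe sets). The list medians lay between -0.01 and 0.11, against 0.00 over all tested probe sets.

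Among 12 tested signals of the shelf, 7 were positive and 5 negative, with a median of 0.05. Bmp4, a ligand in the anterior mesenchyme where Shox2 acts, read 445 to 543 in mutant and 348 to 411 in wild type arrays (log2 fold change 0.37, SE 0.0956, limma adjusted p = 0.602). Wnt11 read 176 to 292 and 150 to 164 (0.46, SE 0.138, limma adjusted p = 0.819). In both the arrays of the genotypes did not overlap, and they were the only 2 of the 12 without overlap, against 2.73% of all tested probe sets. Both were named for their small unadjusted p, which goes with such separation. Fgf7, a growth factor of the nasal side of the shelf, had -0.17, and Shh, the epithelial ligand that many of these factors depend on, had -0.18 (SE 0.148). Fgf10 was below the array medians on all arrays.

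In the hedgehog pathway 4 of 7 tested genes were positive and 3 negative, with a median of 0.01. The transcriptional readouts Gli1 and Ptch1 had log2 fold changes of 0.09 (SE 0.193) and -0.01 (SE 0.0862). Hhip, which binds and limits hedgehog ligands, read 122 to 152 in mutant and 152 to 178 in wild type arrays, with -0.23 (SE 0.106, limma adjusted p = 1.00). All 4 tested probe sets of Hhip were negative, from -0.35 to -0.23. Gli2 and Gli3 had 0.07 and 0.05. The other probe sets of Ptch1 had -0.06 and 0.08, and those of Gli3 -0.09 and 0.15.

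Of 16 tested transcription factors besides the 9, 12 were positive and 4 negative, with a median of 0.11. Dlx5, a distal-less homeobox factor, read 206 to 231 in mutant and 245 to 278 in wild type arrays without overlap (log2 fold change -0.26, SE 0.0882, limma adjusted p = 0.918). Msx1, the partner of Bmp4 in the anterior shelf, read 699 to 1182 in mutant and 387 to 885 in wild type arrays (0.45, SE 0.227). Pitx1 had 0.20 without overlap on its brighter and -0.20 on its other probe set. Dlx5 and Pitx1 were the only 2 of the 16 without overlap, against 2.73% of all tested probe sets, and were also named for their small unadjusted p. Pax9, which is needed for normal Osr2 expression in the shelf, had 0.09 (SE 0.155) on its brightest probe set and 0.14 and -0.21 on the others.

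Of 9 cofactors of LIM proteins and reported downstream genes, 4 were positive and 5 negative, with a median of -0.01. This list was not limited to targets of Lhx6 and Lhx8, and it names no upstream factor for the semaphorins. Ldb1 and Ldb2, the adaptors through which LIM homeobox factors act, had log2 fold changes of -0.07 and -0.14, and Cdkn1c, a cell cycle inhibitor reported to be restrained by Lhx6 and Lhx8, had -0.04 (SE 0.0880). The semaphorins Sema3e, at -0.56 (SE 0.179, limma adjusted p = 0.907), and Sema3d, at 0.44 (SE 0.186, limma adjusted p = 0.995), had unadjusted p-values under 0.05. The other probe set of Sema3d had 0.17, and those of Sema3e had -0.24, -0.08 and -0.40. Lmo4, a LIM-only protein, had a log2 fold change of 0.18 (SE 0.127). Of 13 paralogs of the 9 factors only 5 passed the filter, and 8 were below the array medians on all arrays, among them Barx2, Lhx1, Lhx2 and Lhx9. The tested paralogs were Meox1 (0.47, SE 0.178, limma adjusted p = 0.975), Isl1 (0.29, and -0.04 on its other probe set), Tbx1 (0.09), Tbx18 (-0.15) and Tbx15 (-0.19, and 0.05 on its other probe set), with a median of 0.09.

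**Figure D5:**
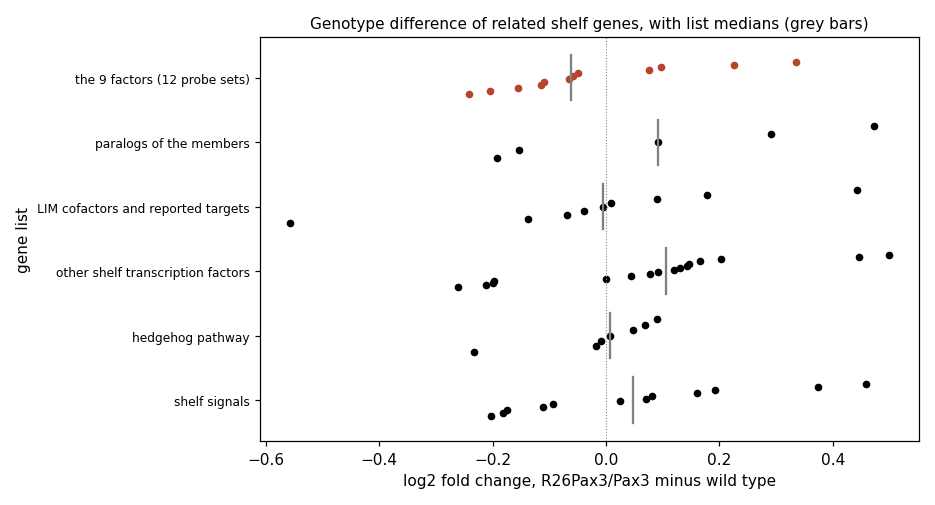
Log2 fold change, R26Pax3/Pax3 minus wild type, of each tested gene in the 5 lists (black, 1 probe set per gene) and of the 12 probe sets of the 9 factors (red), with the median of each list as a grey bar. The list medians lie between -0.01 and 0.11 and that of the 9 factors at -0.06.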

How the data were processed

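Total RNA of 8 samples (6 µg each, per the labels) was hybridised to Affymetrix arrays. The values are the linear signal intensities that the authors deposited, with MAS5 named in the submitters' processing notes; each array had a trimmed mean of 150.001, so a change shared by most genes would be hidden. No detection calls were used here. The 64 control probe sets were left out. Of 45037 others, 34945 had 1 symbol in the platform annotation, 932 several and 9160 none. Signals were taken to log2(signal + 16), and probe sets above the 40th percentile of mean signal were tested with limma 3.58.1 in R 4.3.3 (lmFit, eBayes with trend, no covariates), with Benjamini-Hochberg adjustment over all of them. Correlations over 8 arrays used all 40320 pairings, two-sided. The procedure was tested on simulated data. The number of arrays limits the precision. The 9 genes and the lists were chosen with earlier results of these data known. Named genes were all probe sets of the 9 factors, up to 3 per list by smallest unadjusted p, the 3 most alike genes per factor, and further list members chosen for their roles after their values were seen. Alternatives were other pseudocounts (1 and 64), filters (none and the 60th percentile), quantile normalization, deposition order as a block, no trend, mean of probe sets, genotype or deposition-order means subtracted, and leaving out each array.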

Additional observations from a re-analysis of the deposited data

Results flagged for a closer look

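Wild type replicate 8 read 82.1 on the dimmest of the 3 Pax3 probe sets, where the other wild type arrays read 107.5 to 111.3, a gap larger than the rest of the group's spread allows for 4 samples at the 95% level. None of the 13 probe sets of the 9 factors had such an array in either genotype. About 1 in 20 groups shows such a gap by chance.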

How the results depend on the processing

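No probe set of the 9 factors and no gene of the 5 lists was called under any alternative run. The number of called probe sets was 4 under every alternative that kept all arrays, and 4 to 9 with 1 array left out (9 without mutant replicate 3). The log2 fold changes kept their sign under 88 of 90 alternatives with all arrays. The exceptions were the mean of probe sets, 0.00897 for Meox2 and 0.0242 for Lhx6. The 2 probe sets of each gene had opposite signs, so their mean had to differ in sign from 1 of them. Only the pseudocounts, quantile normalization and the mean of probe sets could change a sign. The filters, the fit without trend and the block by deposition order leave a log2 fold change as it is, so signs kept under them carry no information. With 1 array left out, the signs of both Meox2 probe sets (-0.017 to 0.16 and -0.23 to 0.046) and of both Lhx6 probe sets (-0.16 to 0.092 and -0.000261 to 0.20) turned, and the others kept theirs but varied in size: Osr1 -0.147 to -0.00118, Osr2 0.22 to 0.45, Shox2 -0.31 to -0.13 and -0.39 to -0.097, Tbx22 0.094 to 0.34, Barx1 -0.18 to -0.011, Mn1 -0.18 to -0.020 and Lhx8 -0.21 to -0.098. The number of correlated pairs past the threshold was 1 with all arrays and 0 to 2 with 1 left out. Tbx22 with Lhx8 ran from -0.94 to -0.88 there. Correlations near 0 changed sign, Shox2 with Barx1 to -0.14 with genotype means and -0.059 with means by deposition order subtracted (-0.31 to 0.42 with 1 array left out), Osr1 with Osr2 to 0.045 with genotype means subtracted (-0.40 to 0.11), and Shox2 with Meox2 (-0.094 to 0.72). The cause was not tested. No paired analysis was possible, because the labels do not say which mutant and wild type samples came from the same litter. Dim probe sets, such as the second of Osr2, set no limit on a change.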

Other observations

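Ambn, which encodes the enamel matrix protein ameloblastin, was the marker of tooth germ with a signal above the array median on all 8 arrays. It was singled out after its values were seen. Mutant arrays averaged 62.8 ± 16.4 and wild type arrays 112 ± 10.6 (SD, n = 4 each) without overlap. On the log2 scale the difference was -0.72 (SE 0.151), which limma did not call (adjusted p = 0.403). Of the other tooth markers, Fgf4, Fgf3, Amelx and Edar were below the array medians on all arrays. Ambn was not the only marker without overlap. The bone marker Ifitm5 read 588 to 815 in mutant and 916 to 1337 in wild type arrays (limma adjusted p = 0.573), and all 4 tested bone markers were lower in mutant. Groups did not overlap on 2.73% of all tested probe sets.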
